A study of Mus musculus with 8 samples.

Results

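Egln3 encodes HIF prolyl hydroxylase 3 (PHD3, also known as SM-20), 1 of the enzymes by which a cell reads its oxygen level. The gene was represented by 1 of the 24611 probes on an Illumina mouse expression array, and that probe was 1 of the 12281 kept for analysis and stood for 1 of 4137 genes that could be named and tested. It was found by the gene number inside its probe identifier (Entrez 112407). Egln3 was chosen by its measured values: its signal was lower on the drug-treated arrays. Its difference between groups is therefore given as a description, without a test.

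The arrays measured total RNA from mammary tumours that arose in female MMTV-PyVmT mice (FVB/N-Tg(MMTV-PyVT)634Mul/J), in which the mouse mammary tumour virus promoter drives polyoma virus middle T antigen in the mammary epithelium. Both groups carried this transgene, so neither group is normal mammary tissue. The 4 SKI-606 samples came from mice dosed by oral gavage at 100 mg/kg, the drug being suspended in methocellulose (0.5%) with Tween 80 (0.4%), and the 4 vehicle samples are labelled as vehicle-treated. SKI-606, or bosutinib, inhibits the Src and Abl kinases, and the title of the series asks about differentiation of the tumours. No age, treatment length or time of sampling is given in the sources used here. The labels speak of 8 ng of RNA from each mouse but leave unsaid whether each array is a different animal, so the p-values below cover only the spread between these samples, which may be in part technical.

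Prolyl hydroxylases of the EGLN family use molecular oxygen, iron and 2-oxoglutarate to hydroxylate the alpha subunits of the hypoxia-inducible factors (HIFs). Hydroxylated HIF-alpha is bound by the von Hippel-Lindau protein, ubiquitinated and degraded, and when oxygen runs short HIF-alpha is spared and pairs with ARNT to switch on genes of glycolysis, angiogenesis and metal handling. Egln3 is itself a HIF target in many cell types, and in cultured rat neurons its product has been linked to cell death after withdrawal of nerve growth factor.

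The probe gave a deposited signal of 499.1 on SKI-606 array 1, 857.2 on array 2, 349.1 on array 3 and 553.6 on array 4. On the vehicle arrays it gave 2659.9 on array 1, 2160.4 on array 2, 2032.6 on array 3 and 1520 on array 4. Every vehicle array was brighter than every SKI-606 array, and the dimmest vehicle array exceeded the brightest SKI-606 array 1.77-fold. The mean signal was 565 ± 213 with SKI-606 and 2093 ± 468 with vehicle (SD, n = 4 each). The probe was read as detected on all 8 arrays, with a deposited detection p-value of 0 on each. Of the probes detected on no array, 95% of the signals lay at or under 47.2, so Egln3 stood well clear of that level in both groups.

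After background correction and quantile normalization the log2 signal of Egln3 was 9.36, 9.61, 8.34 and 8.90 on SKI-606 arrays 1 to 4. It was 11.27, 10.84, 10.86 and 10.81 on vehicle arrays 1 to 4. The groups did not overlap, and a gap of 1.20 on the log2 scale separated the highest SKI-606 array from the lowest vehicle array. The means were 9.05 ± 0.56 with SKI-606 and 10.94 ± 0.22 with vehicle (SD, n = 4 each), a difference of -1.89, or 3.71-fold lower with the drug. In these bulk samples, fewer cells that express Egln3 and less Egln3 RNA per cell cannot be told apart.

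**Figure D1:**
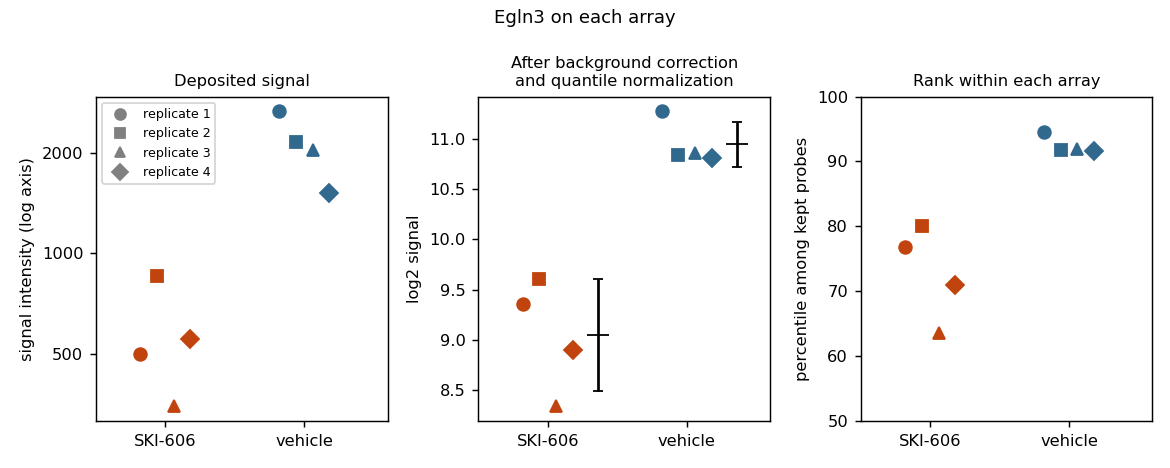
Egln3 on each of 8 arrays, as the deposited signal on a log axis (left), the log2 signal after normalization (middle, with mean and SD as bars, n = 4 each) and the percentile of the probe within its own array (right, axis from 50 to 100). The 4 SKI-606 arrays lie below the 4 vehicle arrays in every panel, and they spread over 1.26 on the log2 scale against 0.46 for the vehicle arrays.

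The SKI-606 arrays varied more among themselves than the vehicle arrays did. Their values spanned 1.26 on the log2 scale and those of the vehicle arrays 0.46, with an SD 2.53 times as large. SKI-606 array 3 had the lowest Egln3 signal of all 8, at 0.71 below its group mean (-0.71), and SKI-606 array 2 the highest of its group, at 0.55 above. In the vehicle group arrays 2, 3 and 4 lay within 10.81 and 10.86, and array 1 stood 0.33 above the group mean.

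The rank of the probe within its own array needs no scaling between arrays. Quantile normalization sets its values from such ranks, so the same order of arrays was to follow and adds no separate evidence. In deposited signal SKI-606 array 4 (553.6) exceeded array 1 (499.1), the reverse of their ranks. Egln3 stood at percentile 76.8, 80.0, 63.5 and 70.9 of the kept probes on SKI-606 arrays 1 to 4. On the vehicle arrays it stood at percentile 94.5, 91.8, 91.9 and 91.6. These ranks compare arrays for 1 probe and do not compare Egln3 with other genes, because probes differ in brightness for reasons other than RNA level.

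In the table of intensities that the authors normalized themselves, Egln3 read 695.3, 818.15, 363.6 and 518 with SKI-606. It read 2511.35, 1867.175, 1893.5625 and 1831.7625 with vehicle. The groups were again apart, and the log2 difference was -1.81, or 3.51-fold lower. Over the 18 alternative settings tried, including each array left out in turn, the difference stayed between -2.08 and -1.65, which is 4.22-fold to 3.15-fold lower.

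Among the differences of all 12281 kept probes, sorted from the lowest, that of Egln3 was the second (rank 2), next to 2 probes that have no gene name here and differed by -1.90 and -1.86. Among the named genes left after predicted genes and clones were set aside, 4059 in all, it ranked 1. The other named genes with the lowest differences were Prom1, which encodes the membrane protein prominin-1, at -1.67, Ddah1, an enzyme that breaks down asymmetric dimethylarginine, at -1.59, Rtn1, a reticulon of the endoplasmic reticulum, at -1.58, and Krt15, a basal keratin, at -1.35. Over all kept probes the median difference was -0.01, with 5820 higher and 6461 lower.

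With limma and Benjamini-Hochberg adjustment over all kept probes, 1 of 12281 probes passed an adjusted p of 0.05 (0.00814%). That probe has no gene name here and was higher with SKI-606. The count was 7 without SKI-606 array 1, 13 without SKI-606 array 2, 1 without SKI-606 array 4 and 0 without any 1 of the others, and it was 185 with array weights. Of the 4137 named genes, 370 were lower at an unadjusted p under 0.05 (8.94%) and 268 higher (6.48%). The groups did not overlap for 245 named genes that were lower with SKI-606 (5.92%) and for 148 that were higher (3.58%). Mean signal per array ran from 300.3 to 419.7, and 11837 to 12578 probes were detected per array. All 8 arrays share 1 chip, with SKI-606 at its first 4 positions and vehicle at its last 4, so chip position and group cannot be told apart. The source name of SKI-606 array 2 describes human islet cells, against the title and every other label of that sample, and the array was kept where its title puts it. Without it the Egln3 difference was -2.08.

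The upstream sequence of Egln3 is shown because the gene is a textbook HIF target and the text below sets it beside other such genes. The HIF-binding core was searched as ACGTG and GCGTG, with their reverse complements CACGT and CACGC for the other strand, in the 250 bases before each listed start. A palindrome CACGTG holds overlapping ACGTG and CACGT and would count on both strands. Sequences are those of RefSeq promoters on GRCm38.p6, written from 5′ to 3′ along the gene's own strand, and capitals mark each match. Beside Egln3 stand its relative Egln1 and the glycolytic genes Gapdh, Pgk1 and Tpi1, each with 1 listed start. These were picked after their values were seen.
Egln3, chr12:54203875-54204124, minus strand: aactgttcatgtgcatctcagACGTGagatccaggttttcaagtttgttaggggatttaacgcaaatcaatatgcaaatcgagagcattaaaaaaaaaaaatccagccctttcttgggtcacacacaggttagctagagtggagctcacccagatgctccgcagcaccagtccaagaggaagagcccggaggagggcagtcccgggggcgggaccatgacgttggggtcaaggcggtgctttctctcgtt
Egln1, chr8:124949255-124949504, minus strand: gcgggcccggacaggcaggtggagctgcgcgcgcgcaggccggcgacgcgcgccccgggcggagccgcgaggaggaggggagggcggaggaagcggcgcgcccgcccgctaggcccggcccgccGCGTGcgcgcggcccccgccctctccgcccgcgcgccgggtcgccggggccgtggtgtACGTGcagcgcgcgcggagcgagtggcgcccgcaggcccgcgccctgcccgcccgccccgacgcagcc
Gapdh, chr6:125165774-125166023, minus strand: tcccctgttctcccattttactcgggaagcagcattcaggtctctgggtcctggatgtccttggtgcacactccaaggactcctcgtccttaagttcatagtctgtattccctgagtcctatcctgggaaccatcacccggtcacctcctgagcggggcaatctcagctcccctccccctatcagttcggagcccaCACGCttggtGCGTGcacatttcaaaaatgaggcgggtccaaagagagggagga
Pgk1, chrX:106186850-106187099, plus strand: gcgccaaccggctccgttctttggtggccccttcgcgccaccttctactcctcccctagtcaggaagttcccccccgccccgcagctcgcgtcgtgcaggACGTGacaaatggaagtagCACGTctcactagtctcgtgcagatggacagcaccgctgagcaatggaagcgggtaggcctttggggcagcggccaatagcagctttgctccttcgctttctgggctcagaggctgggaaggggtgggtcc
Tpi1, chr6:124814159-124814408, minus strand: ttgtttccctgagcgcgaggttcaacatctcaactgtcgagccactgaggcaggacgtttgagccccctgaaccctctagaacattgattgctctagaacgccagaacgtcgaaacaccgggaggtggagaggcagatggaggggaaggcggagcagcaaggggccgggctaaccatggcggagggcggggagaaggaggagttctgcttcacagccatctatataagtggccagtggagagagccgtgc
The Egln3 window held 1 match, which began 229 bases before the start. Egln1 held 2, at 126 and 68 bases before its start, Gapdh 2, at 54 and 44, and Pgk1 2, at 150 and 131. Tpi1 held none. Of all 32851 windows in the table, 38.6% held at least 1 match and 16.7% at least 2, so a match is common and describes only these letters. Of 37 genes looked up (Egln3, the hydroxylase, HIF subunit and HIF target genes), 32 had a listed window once 1 chromosome was left out of this lookup. Of these, 28 had a match in at least 1 listed window. This counts genes, some with several windows, while the 38.6% counts single windows. The share of all genes with a match in any window was not computed, so the 28 cannot be read as more than usual.

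Egln1, the only other family member with a named probe, had a smaller difference in value than Egln3. Whether the 2 differences themselves differ was not tested, since Egln3 was chosen for its own. Egln1 encodes PHD2, the main HIF hydroxylase in well oxygenated cells. Its log2 signal was 7.0, 7.26, 6.84 and 7.22 with SKI-606. It was 7.54, 7.42, 6.85 and 7.32 with vehicle. The groups overlapped, and the difference was -0.20 ± 0.17 (SE, n = 4 each; limma adjusted p = 0.611). It was -0.12 without SKI-606 array 3 or without vehicle array 1, -0.35 without vehicle array 3 and -0.08 with array weights. A second, dimmer Egln1 probe differed by -0.02. No probe is named here for Egln2, the remaining member of the family, or for Vhl.

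Of 18 listed genes of oxygen sensing and HIF degradation other than Egln3, 7 had a probe and all 7 were tested. By the brightest probe of each gene, 2 were higher and 5 lower with SKI-606, and the median difference was -0.08. None of these probes passed the adjusted threshold, reached an unadjusted p under 0.05 or had groups that did not overlap. The ring protein Rbx1, part of the ubiquitin ligase that von Hippel-Lindau protein joins, differed by -0.08 ± 0.09 (adjusted p = 0.719 in limma; 0.01 under median scaling), and Elob, an elongin of the same complex, by 0.02 ± 0.09. Siah1b, whose family of ubiquitin ligases targets Egln3 protein itself for degradation, differed by -0.34 ± 0.19 (adjusted p = 0.439). Its SKI-606 values ran from 6.56 to 7.29 and its vehicle values from 7.11 to 7.69, and the difference was -0.19 without SKI-606 array 3 and -0.09 with array weights. Usp20, a deubiquitinase reported to spare HIF-1 alpha, differed by 0.21 ± 0.13 (0.12 without SKI-606 array 3), and the ubiquitin-conjugating enzymes Ube2d2a and Ube2d3 by -0.001 and -0.09. A second, dimmer Rbx1 probe differed by -0.28 ± 0.12, and the mean of the Rbx1 probes by -0.18. Second, dimmer probes of Elob and Ube2d2a lay the other way, at 0.11 ± 0.16 and 0.13 ± 0.15. Of these second probes, only that of Rbx1 fell under the unadjusted threshold.

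The HIF subunits gave little to set beside Egln3. Of 10 listed subunits and coactivators 6 had a probe and 4 were tested. The probe for Hif1a was detected on no array and so was not tested, and no probe is named here for Epas1, which encodes HIF-2 alpha. Arnt, the common partner of the alpha subunits, was dim and differed by -0.09 ± 0.05 (adjusted p = 0.413 in limma), and its sign turned under median scaling (0.15). Hif3a differed by -0.005 ± 0.146 (0.10 under median scaling). Cited2, an inhibitor that competes with HIF for its coactivators, differed by 0.47 ± 0.43, and the coactivator Ncoa1 by 0.26 ± 0.18. Single arrays moved both: Cited2 was 0.10 without SKI-606 array 3, 0.81 without SKI-606 array 2 and 0.30 without vehicle array 2. Ncoa1 was 0.16 without SKI-606 array 3, 0.17 without SKI-606 array 1 and 0.41 without SKI-606 array 2. The median of the 4 was 0.13, with 2 higher and 2 lower.

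HIF target genes lay on both sides of 0. Among 26 listed targets in glycolysis 15 had a probe and 12 were tested, of which 5 were higher and 7 lower with SKI-606, with a median difference of -0.12 against -0.01 over all named genes. None passed the adjusted threshold. Before adjustment, p was under 0.05 for 1 that was higher and 2 that were lower, that is 1 of 12 beside 6.48% and 2 of 12 beside 8.94% of all named genes. The median was 0.0028 under median scaling, so its direction depends on that choice. It was -0.05 without SKI-606 array 1, -0.07 without vehicle array 1 and between -0.17 and -0.11 with any other single array left out, at -0.14 without SKI-606 array 2, whose source name is in conflict.

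Inside this list the enzymes pointed different ways. Eno1 (enolase) read 11.23, 11.52, 10.71 and 11.19 with SKI-606 and 11.81, 11.84, 11.56 and 11.43 with vehicle. The highest SKI-606 array overlapped the lowest vehicle array, and the difference was -0.50 ± 0.18 (adjusted p = 0.239 in limma). Pgk1 (phosphoglycerate kinase) read 11.72, 11.97, 10.87 and 11.74 against 12.37, 12.30, 11.77 and 11.86, a difference of -0.50 ± 0.26 (adjusted p = 0.403). Gapdh differed by -0.35 ± 0.14 (adjusted p = 0.278) and Tpi1 by -0.35 ± 0.17 (adjusted p = 0.368), and for all 4 of these genes, as for Egln3, SKI-606 array 3 was the lowest of the 8. Pkm, the pyruvate kinase that closes the pathway, was 1 of the 5 that were higher, and the 1 member of the list whose groups did not overlap. Its 4 SKI-606 values were 12.75 to 12.90 and its vehicle values 12.44 to 12.71, with a difference of 0.23 ± 0.07 (adjusted p = 0.198). Ldha, which makes lactate, differed by 0.19 ± 0.12, the phosphofructokinase Pfkl by 0.39 ± 0.18 and the regulatory Pfkfb4 by 0.38 ± 0.32.

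Of 51 listed HIF targets outside glycolysis 15 had a probe and 13 were tested. They split into 8 higher and 5 lower, with a median difference of 0.04 that ran from -0.06 without SKI-606 array 3 to 0.08 without SKI-606 array 4, and none passed the adjusted threshold. Angptl4, a secreted inhibitor of lipoprotein lipase, read 11.75, 10.39, 9.94 and 10.93 with SKI-606. It read 9.72, 9.47, 10.42 and 9.0 with vehicle. Its difference of 1.10 ± 0.44 (adjusted p = 0.278 in limma) was opposite in sign to that of Egln3, and the groups overlapped. The nuclear receptor Rora was also higher in value, at 0.73 ± 0.25 (adjusted p = 0.228), with its 4 SKI-606 values above all vehicle values. Lower in value were Ak4, an adenylate kinase of mitochondria, at -0.47 ± 0.16 (adjusted p = 0.234), the cytokine Mif at -0.43 ± 0.18 (adjusted p = 0.310) and the metallothionein Mt1 at -0.37 ± 0.28. Igfbp3 differed by -0.18 ± 0.23, and Klf6 and the transferrin gene Trf by 0.09 each. Probes for the targets Ero1a and Ptgs2 did not pass the detection filter.

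**Figure D2:**
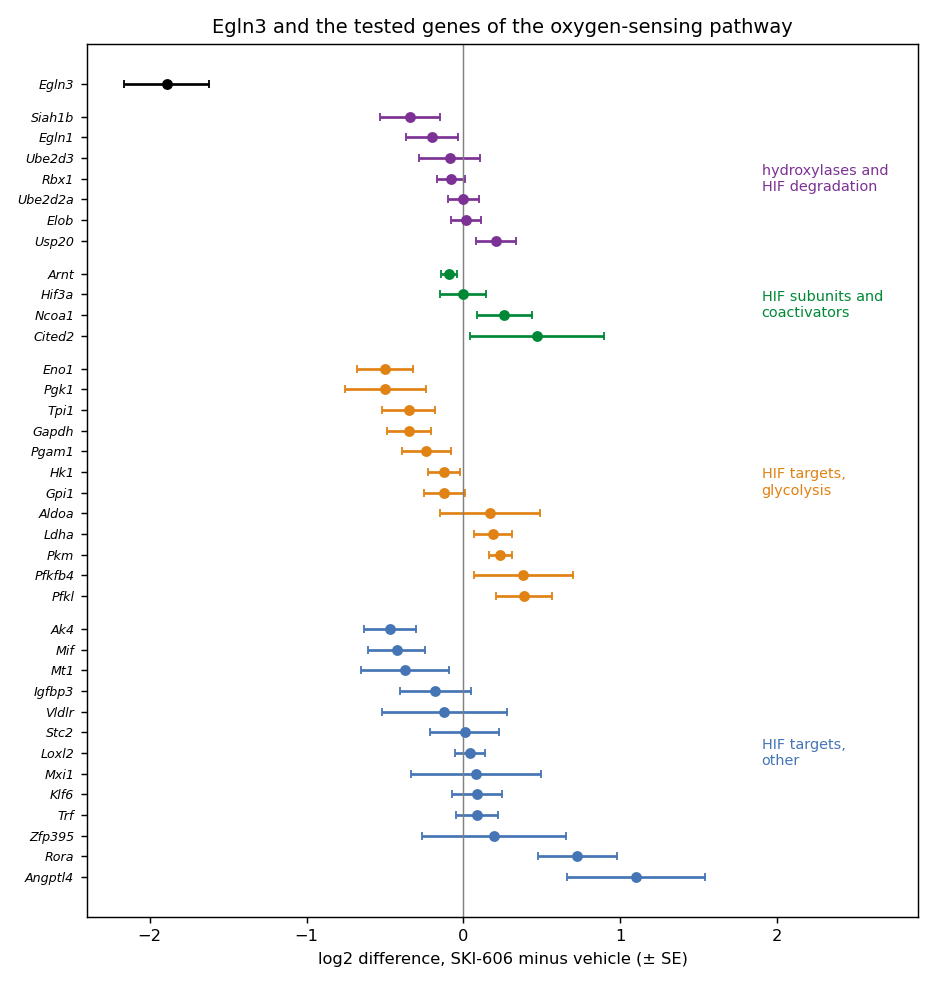
Log2 difference, SKI-606 minus vehicle, with its SE (n = 4 each), for Egln3 (black) and each tested gene of 4 lists: hydroxylases and HIF degradation (purple), HIF subunits and coactivators (green), HIF targets in glycolysis (orange) and other HIF targets (blue). Egln3 lies at -1.89, and the other genes lie between Eno1 at -0.50 and Angptl4 at 1.10.

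Egln3 belongs to the large family of 2-oxoglutarate dioxygenases, which share its need for oxygen and iron. Of 41 listed relatives 15 had a probe and 9 were tested, of which 7 were higher and 2 lower, with a median difference of 0.23. Bbox1, the last enzyme of carnitine synthesis, read 6.68, 6.75, 6.87 and 6.76 with SKI-606. It read 6.12, 6.47, 6.25 and 6.45 with vehicle. All 4 SKI-606 values of Bbox1 were above the vehicle values, the reverse of Egln3, with a difference of 0.44 ± 0.09 (adjusted p = 0.113 in limma). The collagen hydroxylase P3h1 differed by 0.23 ± 0.11, the histone demethylase Kdm6a by 0.24 ± 0.11 and Jmjd8 by 0.30 ± 0.18. Asph, the aspartyl hydroxylase, differed by -0.22 ± 0.10 and the demethylase Kdm4a by -0.07 ± 0.05, and no member of the list passed the adjusted threshold.

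Enzymes that make or use 2-oxoglutarate, succinate and fumarate, the substrate and the inhibitors of these hydroxylases, were also mixed. Of 28 listed, 16 had a probe and 11 were tested, with 4 higher and 7 lower, a median of -0.09 and none past the adjusted threshold. Ogdh, which turns 2-oxoglutarate into succinyl-CoA, read 10.15, 9.31, 10.26 and 9.83 with SKI-606 and 8.97, 9.06, 8.86 and 9.22 with vehicle. The groups did not overlap and the difference was 0.86 ± 0.21 (adjusted p = 0.143 in limma). Idh1, which makes 2-oxoglutarate in the cytosol, lay the other way, at 8.98, 8.90, 8.35 and 8.79 against 9.21, 9.30, 9.02 and 9.75, with no overlap and a difference of -0.56 ± 0.19 (adjusted p = 0.224). Sdhc, a subunit of succinate dehydrogenase, differed by -0.31 ± 0.12, the aminotransferase Got2 by -0.21 ± 0.09 and Dlst, a partner of Ogdh, by -0.16 ± 0.13. Mdh2 differed by 0.54 ± 0.85, with 1 vehicle array at 6.49 and the others at 10.09 to 10.47.

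The last list held genes reported to bind Egln3 protein or to act with it in neuronal cell death, where 8 of 23 had a probe and 7 were tested, 3 higher and 4 lower, with a median of -0.04. Cct3, a subunit of the cytosolic chaperonin, read 8.81, 9.31, 8.53 and 9.11 with SKI-606. It read 9.37, 9.92, 9.39 and 9.80 with vehicle, so the groups did not overlap, and the difference was -0.68 ± 0.20 (adjusted p = 0.187 in limma). The related subunit Cct4 differed by -0.04 ± 0.09. The scaffold Wdr83 differed by -0.13, the IKK subunits Ikbkg and Ikbkb by -0.16 and 0.06, and the kinesin Kif1b, placed downstream of Egln3 in sympathetic neuron death, by 0.07 ± 0.15. Pkm, given above, is also on this list, and none of the 7 passed the adjusted threshold.

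The genes whose signal followed that of Egln3 most closely were ranked by Pearson r over the 8 arrays, among 4058 other named genes. These r values are descriptions. They rest on 8 points that share 1 chip and 1 scaling, and the gap between the groups dominates them. The highest were Eef2, the elongation factor of translation, at 0.979, Ciao2b, of cytosolic iron-sulphur cluster assembly, at 0.971, the ribosomal protein gene Rplp0 at 0.961 and the sodium-coupled sugar transporter gene Slc5a9 at 0.957. Rpl13a (0.944), Myl6 (0.943), Rpl10a (0.941) and Prune1 (0.939) followed. In all 32 genes exceeded an r of 0.9, and 30 of them had SKI-606 values entirely below the vehicle values, beside 5.92% of all named genes. So high an r with Egln3, whose groups lie apart, favours such genes, so this count is no separate result. The most opposed were Sptbn1 (-0.967), Fbxo34 (-0.956), Mprip (-0.949), Hhipl2 (-0.947), Dido1 (-0.946), Gga3 (-0.942), Zfp148 (-0.938) and Zmym5 (-0.938), among 23 genes under -0.9. The median over all the genes was 0.005.

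Taking each value minus the mean of its own group removes the gap between SKI-606 and vehicle and asks which genes followed Egln3 from array to array. By this measure 17 genes exceeded 0.9, and 25 lay under -0.9, with a median of -0.02 over all. Slc4a7, a bicarbonate transporter, came highest at 0.966, although its group means hardly differed (0.05 ± 0.19). Eef2 (0.955), Dnajc13 (0.954), Coq10b (0.948), Gapdh (0.948), Ddah1 (0.936), Rpl27 (0.932) and Gask1b (0.927) followed. The lowest were Pds5a (-0.989), Gpatch1 (-0.983), Apobec3 (-0.979), Dnajc25 (-0.962) and Eif3c (-0.954). Only 2 genes exceeded 0.9 by both measures, Eef2 and Ddah1.

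**Figure D3:**
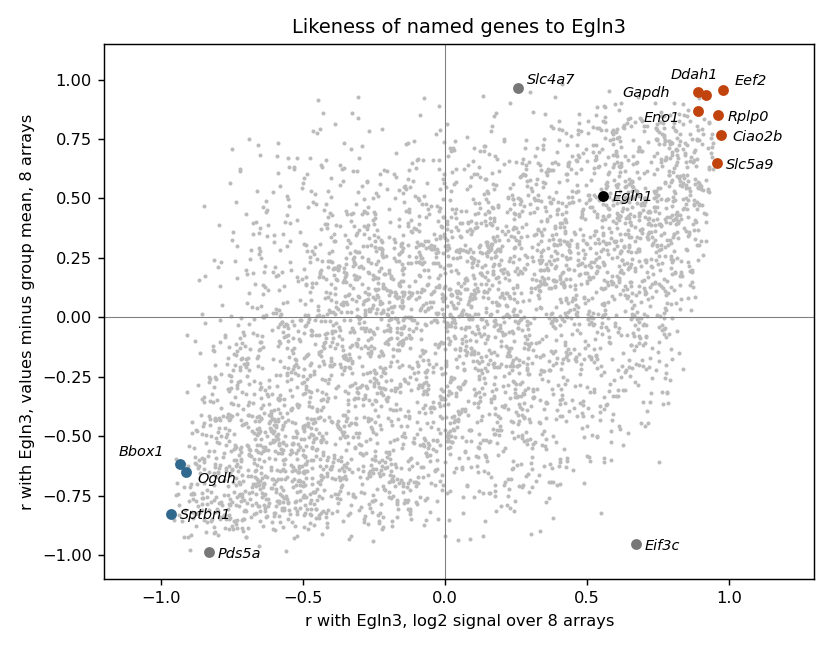
Each grey point is 1 of the 4137 named genes tested other than Egln3, predicted genes and clones included. It is placed by its Pearson r with Egln3 over 8 arrays (horizontal) and by r after subtracting each group's mean (vertical). Labelled orange points such as Eef2 (0.979 and 0.955) lie high on both axes, blue points such as Sptbn1 low on both, and Slc4a7 and Eif3c are named because the axes part for them. Egln1 is black, at 0.557 and 0.512.

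Several of these likenesses were not seen with 2 arrays left out. With SKI-606 arrays 2 and 3 left out, which lay farthest from their group mean for Egln3, r of the centred values was 0.978 for Eef2, 0.979 for Slc4a7, 0.882 for Gapdh and 0.879 for Ddah1. It was 0.008 for Rplp0, 0.078 for Slc5a9, -0.05 for Rpl13a and -0.30 for Rpl10a. For those ribosomal and transporter genes the likeness within groups was thus not seen without these 2 arrays. They hold the largest Egln3 deviations, so the closer values that remain cannot show whether it is absent there. With SKI-606 arrays 3 and 4 left out, which lay farthest from the median, r over the remaining arrays was 0.952 for Eef2, 0.861 for Ddah1 and -0.64 for Slc4a7.

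By its brightest probe, Eef2 tracked Egln3 array by array on a much smaller scale. It read 12.83, 12.95, 12.65 and 12.71 with SKI-606 and 13.17, 13.09, 13.06 and 13.05 with vehicle, so array 3 was lowest and array 2 highest of the SKI-606 group and array 1 highest of the vehicle group, as for Egln3. Its difference was -0.31 ± 0.08 (adjusted p = 0.152 in limma). Ddah1 came nearer to Egln3 in size, at 8.67, 8.86, 6.69 and 7.05 against 9.89, 8.98, 9.43 and 9.36, a difference of -1.59 ± 0.52 (adjusted p = 0.213). Both had groups that did not overlap. Eef2 had 3 kept probes, and the values above are those of the brightest alone. With the mean of a gene's probes, 7 of the 8 genes highest by centred r stayed among the first 50. Of these 8 genes only Eef2 had more than 1 kept probe. Whether its dimmer probes follow Egln3 is not shown, so its likeness rests on 1 probe.

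Among the pathway genes Gapdh followed Egln3 most closely within groups. It read 13.54, 13.59, 13.03 and 13.30 with SKI-606 and 13.91, 13.73, 13.54 and 13.66 with vehicle, and its r with Egln3 was 0.891 over 8 arrays and 0.948 centred. For Eno1 the r values were 0.890 and 0.868, for Pgk1 0.790 and 0.849 and for Tpi1 0.805 and 0.819. With SKI-606 arrays 2 and 3 left out the centred r was 0.466 for Eno1, 0.475 for Pgk1 and 0.121 for Tpi1. Over the whole glycolysis list 7 of 12 members had r above 0 over 8 arrays and 6 of 12 in centred values, against 50.3% and 48.6% of all other named genes. Ldha ran against Egln3 at -0.70 and -0.73.

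**Figure D4:**
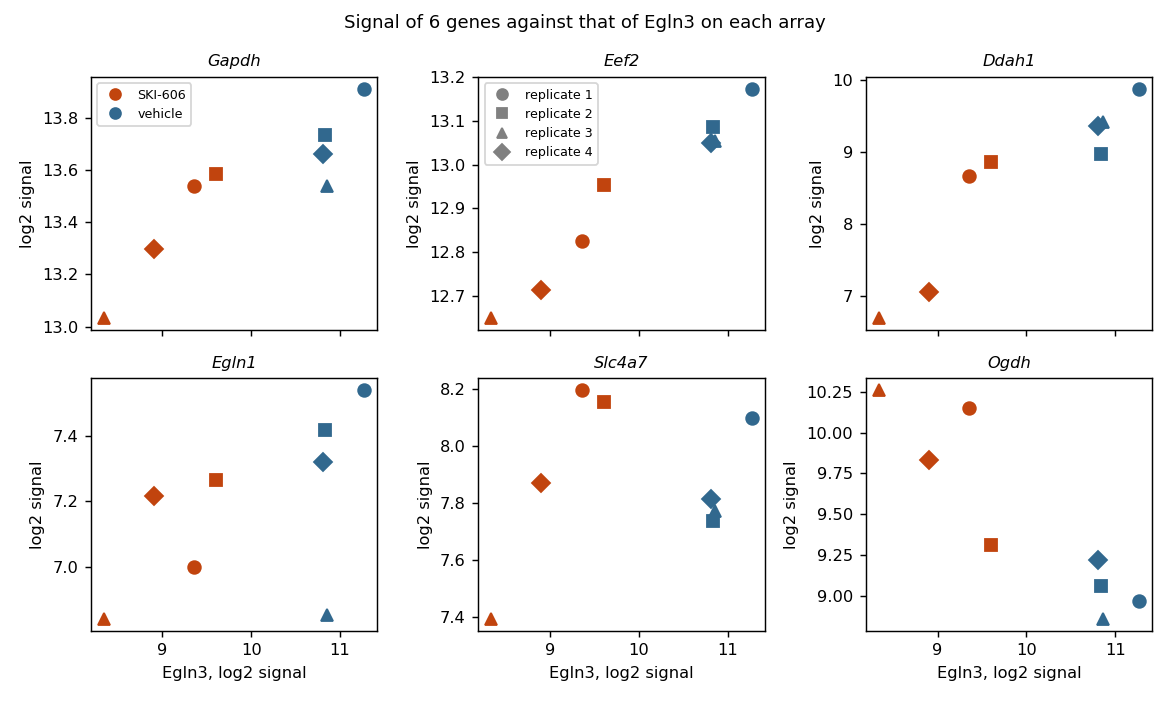
Log2 signal of 6 genes (vertical, each with its own range) against that of Egln3 (horizontal) on 8 arrays, with SKI-606 in orange, vehicle in blue and the symbol giving the replicate. Gapdh, Eef2 and Ddah1 run upward with Egln3 inside the SKI-606 group as well as between groups, Egln1 overlaps between groups, Slc4a7 follows Egln3 inside groups at equal group means, and Ogdh runs the other way.

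The tissue label was checked against marker lists, which also show what else differed beside Egln3. Of 21 luminal epithelial markers 10 had a probe and 9 were tested, with Ehf detected on no array. Their summed intensity was 15210 to 25280 over the SKI-606 arrays and 20470 to 23310 over the vehicle arrays, and the keratin gene Krt8 read 12.49 to 13.28 and 12.89 to 13.15 on the log2 scale. Both groups thus carried epithelial signal, and these sums overlapped. The mean log2 signal of the list, relative to vehicle, was -0.36, 0.004, -0.20 and -0.26 on SKI-606 arrays 1 to 4. It ran from -0.01 to 0.01 on the vehicle arrays, so only SKI-606 array 2 lay among them. The r of this mean with Egln3 was 0.75 over 8 arrays and 0.268 in centred values. The part of luminal cells in the Egln3 difference was not tested. Of these 9 markers 4 were higher and 5 lower, with a median of -0.01, and Prom1 was the marker with the lowest difference (-1.67). The r of Prom1 itself with Egln3 was 0.890 over 8 arrays and 0.543 in centred values. The list mean was not computed without Prom1. The lower list means with SKI-606 and their r thus cannot be read as a shift of luminal markers as a set.

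Markers of vessels and connective tissue were mostly higher in value in the SKI-606 group, where Egln3 was low, but did not run against Egln3 inside that group. The endothelial list mean, relative to vehicle, was 0.83, 0.61, 0.35 and 0.34 on SKI-606 arrays 1 to 4. The 6 tested of 22 endothelial markers (7 with a probe, Erg detected on no array) were all higher in value with SKI-606, 5 of them with p under 0.05 before adjustment (6.48% of all named genes) and 4 without overlap (3.58% of all named genes), and their summed intensity was 1654 to 2353 against 1143 to 1446 with vehicle. The 9 tested of 20 fibroblast and matrix markers (11 with a probe, Col5a2 and Postn detected on no array) split into 8 higher in value, 4 of these with p under 0.05 before adjustment (6.48% of all named genes), and 1 lower, with sums of 13800 to 17370 against 7571 to 11360. Neither sum overlapped between groups, no member passed the adjusted threshold in limma, and within groups r of the list mean with Egln3 was 0.484 for endothelial and 0.213 for fibroblast markers. The part of these cell types in the Egln3 difference was not tested.

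The other lists overlapped between groups in summed intensity. For 16 adipocyte markers (6 with a probe, 5 tested, Fabp4 detected on no array) the sums were 3203 to 12280 with SKI-606 and 2813 to 6644 with vehicle. For 13 basal and myoepithelial markers (7 with a probe, 6 tested, Cnn1 on no array) they were 3146 to 6397 and 2753 to 5194, and for 16 macrophage markers (6 with a probe, 5 tested, Itgam on no array) 2448 to 4354 and 3424 to 3827. Of 16 lymphocyte markers 4 had a probe and 2 were tested, with sums of 133.2 to 182.2 and 136.9 to 142.3 and with Cd8b1 and Ptprc on no array. Of 12 muscle markers Actn3 alone was tested, at 66.07 to 195.5 and 64.97 to 214. The part of these cells in the Egln3 values was not tested either.

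Proliferation genes were lowest on the SKI-606 array where Egln3 was lowest. Of 24 listed, 12 had a probe and 11 were tested (Bub1 detected on no array). All 11 were lower in value with SKI-606, beside 52.3% of all named genes, with a median of -0.65. Of the 11, 1 had p under 0.05 before adjustment, beside 8.94% of all named genes. The list mean relative to the vehicle mean was -0.62, 0.12, -1.90 and -0.05 on SKI-606 arrays 1 to 4 and ran from -0.12 to 0.09 on the vehicle arrays. Only SKI-606 arrays 1 and 3 thus lay below every vehicle array. Array 3 was the lowest and array 2 the highest of the SKI-606 group, as for Egln3, but arrays 1 and 4 stood in the opposite order. All 11 had r above 0 with Egln3 by both measures, against 50.3% and 48.6% of all other named genes, and r of the list mean was 0.674 over 8 arrays and 0.717 in centred values. With SKI-606 arrays 2 and 3 left out 1 of the 11 had a centred r above 0, against 48.1% of all other named genes, and r of the list mean was -0.81. For Rfc3, a subunit of replication factor C, the centred r was then -0.62, and for the ribonucleotide reductase gene Rrm2 it was -0.87. The likeness of this list to Egln3 within groups was thus not seen without those 2 arrays, which hold the largest Egln3 deviations. The part of proliferation in the Egln3 values was not tested. The signal of the 18S rRNA probe, 4135.8 to 10193.8 with SKI-606 and 8898.4 to 13711.6 with vehicle, overlapped between groups, and its part in the Egln3 values was not tested.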

How the data were processed

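RNA from mammary tumours was measured in 8 samples on 1-colour Illumina arrays, and sample titles gave the groups. Vehicle sample 3 carries no number in its title, so its 3 is a name only. The first deposited table gave the average signal intensity of each probe on each array, which by its values was neither background-subtracted nor scaled, and, per the file headers, a detection p-value. Another table from the authors held intensity values, linear and with the same quantiles on every array, which served as an alternative. Software and genome build are not given in the labels or headers used here.

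The signals went through neqc in limma 3.58.1 (R 4.3.3), which corrected the background by normexp with negative controls taken from the detection p-values, equalized quantiles, added an offset of 16 and took log2. After 4 bacterial control probes were removed, a probe was kept if its detection p was below 0.05 on 4 or more of the 8 arrays. The fit by lmFit and eBayes had 1 term, the group, and Benjamini-Hochberg adjustment ran over the 12281 kept probes. A difference means SKI-606 minus vehicle, and the value after ± beside a difference is its SE (n = 4 each). The procedure was tested on simulated data. The number of arrays limits the precision.

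The files name no genes. Numbers inside 9490 probe identifiers were looked up among RefSeq gene IDs (GRCm38.p6), and 93.3% met one, against 48.7% when 1 was added to each. Where several kept probes met 1 gene (452 genes), the brightest stood for it. Egln3, the gene lists and the tests were chosen with earlier results of these data known. The genes named are the tested hydroxylase, HIF degradation and HIF subunit genes, at most 4 in each direction with the smallest p from every other pathway list, the 8 highest and 8 lowest by r with Egln3, the 8 highest and 5 lowest by centred r, the 5 largest differences each way and at most 2 from a marker list. The largest differences with higher values were Fabp3 at 3.81, Csn2 at 2.62, Amtn at 2.33, Cel at 2.30 and Srgn at 2.08. Krt8 was added after its values were seen. Alternatives changed the background correction, scaling, offset, detection filter, variance model, weighting of arrays, blocking by replicate number, source table and summary over a gene's probes, or left out 1 array. Figures were drawn with matplotlib 3.10.9.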

Additional observations from a re-analysis of the deposited data

Results flagged for a closer look

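In 198 combinations of a named gene and a group of 4 arrays, 12 held 1 array far from the other 3 by Dixon's test, where chance flags about 1 in 20. All values are log2 signals. Egln3 itself was among them, at 11.27 on vehicle array 1 while the other vehicle arrays lay at 10.81 to 10.86. Leaving that array out gave an Egln3 difference of -1.78.

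Among the pathway genes, Mif stood at 12.52 on vehicle array 3, below the others at 12.82 to 12.86. Mdh2 stood at 9.475 on SKI-606 array 3 against 9.923 to 10.01, and at 6.489 on vehicle array 4 against 10.09 to 10.47. Kif1b stood at 10.02 on vehicle array 4 against 9.563 to 9.617.

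Among genes named for their likeness to Egln3 or for the size of their difference, Myl6 stood at 11.48 on SKI-606 array 3 against 11.75 to 11.81, Fbxo34 at 8.754 on vehicle array 4 against 8.517 to 8.557, and Krt15 at 7.361 on SKI-606 array 2 against 6.083 to 6.138. Among the markers, the contractile gene Mylk stood at 7.264 on vehicle array 3 against 7.86 to 7.976, and the complement gene C1qb at 9.919 on SKI-606 array 2 against 9.35 to 9.441. The muscle gene Actn3 stood at 7.611 on SKI-606 array 1 against 6.046 to 6.145, and at 7.741 on vehicle array 4 against 6.022 to 6.035. Vehicle array 4 gave 4 of these 12 values, SKI-606 arrays 2 and 3 and vehicle array 3 gave 2 each, and SKI-606 array 1 and vehicle array 1 gave 1 each.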

How the results depend on the processing

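The Egln3 difference of -1.89 kept its sign in all 18 alternatives, from -2.08 (without SKI-606 replicate 2) to -1.65 (without SKI-606 replicate 3). The count of called probes, 1 in the reported fit, was 0 under median scaling, with an offset of 50, with probes detected on all 8 arrays, with an intensity trend and robust prior, and with the replicate number as a block. It was 185 with array weights and ran from 0 to 13 with 1 array left out (7 without SKI-606 replicate 1, 13 without SKI-606 replicate 2). The causes were not tested. The glycolysis median of -0.12 was 0.0028 under median scaling and -0.0195 without the filter on dim probes, and the median of other HIF targets stayed between -0.06 and 0.08. Arnt read -0.22 without background correction, 0.15 under median scaling and -0.28 in the authors' table. Of the 8 genes most like Egln3, 5 stayed among the first 50 under median scaling, by r over 8 arrays and by centred r alike. In every other alternative run for them 8 stayed by r over 8 arrays, and 7 or 8 by centred r. Likeness was not recomputed for array weights, the variance model or the block. Same-numbered arrays 1, 2 and 4 had correlated deviations of 0.0708, 0.544 and 0.131, which does not show that the numbers pair the samples. With the replicate number as a block over these 6 arrays the Egln3 difference was -1.68, the glycolysis median -0.22 and the median of other targets -0.06.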
